A study of Mus musculus with 6 samples.

Results

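Cyclic nucleotide phosphodiesterases are the enzymes that break down cAMP and cGMP, and 9 of their genes, Pde3a, Pde3b, Pde4a, Pde4b, Pde4d, Pde5a, Pde7a, Pde8a and Pde10a, were followed in myoblasts of the mdx mouse, given PSB-KD107 or its vehicle. The 9 genes were taken by symbol from a table of 47069 genes, and 7 of them passed the filter on low counts, among 14165 genes tested. The 12 other phosphodiesterase genes, of which 5 passed the filter, served as relatives.

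The mdx mouse carries a mutation of the dystrophin gene and is the standard mouse model of Duchenne muscular dystrophy. Muscle stem cells were sorted from mdx muscle as cells without Sca-1 (encoded by Ly6a), CD45, CD31 and CD11b that carried the integrins Itgb1 and Itga7. The methods give a growth medium of serum and FGF2 and a low-serum medium for differentiation. They do not say which was used for the sequenced myoblasts. The myoblasts received 10 µM PSB-KD107, a synthetic agonist of the receptor Gpr18, or vehicle, which the methods describe as DMSO in aqueous buffer. Every library thus comes from dystrophin-deficient cells, and no wild-type cells were compared. RNA was sequenced in 3 libraries per group, numbered 1, 2 and 4 in the count table. The methods describe the mdx mice that were injected in the study as C57BL/10 males of 10 weeks, and do not say separately from which mice these cells came. The sample records give a treatment of 2 days and the methods a single night, so the exposure behind these values is uncertain. The methods mention 3 different mice, but no record ties a library to a mouse, so that p-values measure the spread between these libraries, which may be partly technical.

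The libraries held between 30917613 and 48756794 counts, and 3 counts corresponded to 0.0596 to 0.0962 CPM (counts scaled to library size with TMM factors). All 7 myogenic markers (Myod1, Myf5, Pax7, Des, Cdh15, Itga7 and Myog) were detected, with summed levels of 7878 to 8529 CPM in the vehicle libraries and 6942 to 7682 CPM in the PSB-KD107 libraries. The sums did not overlap, and Des and Myog made up most of each. Of the 7 genes, 2 had higher and 5 lower fitted levels with PSB-KD107. The higher ones were Myf5 (log2 fold change 0.73, SE 0.92, edgeR) and Des (0.15, SE 0.18), both with overlapping groups. Pax7 stood at 59.55 ± 9.47 CPM under vehicle and 31.96 ± 4.55 CPM under PSB-KD107 (SD, n = 3). Myog stood at 2134 ± 82.75 and 1521 ± 301 CPM. Neither gene's groups overlapped, where 6.59% of all genes were lower in this way. DESeq2 called Pax7 lower (adjusted p = 0.000639), against 0.982% of all genes, but edgeR did not (adjusted p = 0.209). The part of these markers in the values that follow was not tested. The 6 adipocyte markers summed to at most 0.199 CPM in any library, and Plin1 was at 0 throughout. The fibro-adipogenic markers summed to 1.80 to 5.05 CPM under vehicle and 2.25 to 10.6 CPM under PSB-KD107, with Lum at 0, and the highest value belonged to PSB-KD107 library 4. In that library Ly6a reached 8.36 CPM, against at most 1.29 CPM in the other 5, although the sort selected against its product. Ly6a made up most of that sum. Dcn had its lowest value there (0.0275 CPM), and Cd34 stood at 0.770 CPM, against 2.88 CPM in PSB-KD107 library 1. Pdgfra stood at 1.46 CPM there and at no more than 1.17 CPM elsewhere. Itgam, whose product CD11b the sort also selected against, was lowest in that library (0.385 CPM) and highest in vehicle library 1 (4.235 CPM). Macrophage markers summed to 2.30 to 4.82 CPM and 0.660 to 6.56 CPM, with Adgre1 at 0, endothelial markers to 0.310 to 1.40 CPM and 0.385 to 1.13 CPM, and smooth muscle markers, nearly all Acta2, to 2013 to 3113 CPM and 1200 to 3957 CPM. Acta2 was the only 1 of the 4 smooth muscle markers to pass the filter. The others, Myh11, Cnn1 and Myocd, stood at no more than 0.4811 CPM in any library.

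Cells make cAMP with adenylyl cyclases and cGMP with guanylyl cyclases, and phosphodiesterases end both signals by opening the cyclic phosphate ring. The families differ in what they hydrolyse: the Pde4, Pde7 and Pde8 enzymes act on cAMP, Pde5a acts on cGMP, and the Pde1, Pde2, Pde3, Pde10 and Pde11 enzymes accept both. Pde3b is best known from adipocytes and hepatocytes, where insulin acts through Akt and Pde3b to lower cAMP and restrain lipolysis.

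All members share a catalytic domain whose histidines and aspartates hold the metal ions of the active site. The coding stretch of its signature motif is shown for each member because it is the part that the 9 genes have in common. Each stretch is 30 bases long, read 5′ to 3′ on the coding strand of the longest coding transcript in GENCODE M21 (genome build GRCm38), and capitals mark the codons of the motif's histidine, aspartate, histidine and closing asparagine, the last being a glutamine codon in Pde7a.
Pde3a: CATGACtacgatCACccagggaggacaAAT
Pde3b: CACGATtacgatCACccaggaagaacaAAT
Pde4a: CATGACgtggacCACcctggcgtctccAAC
Pde4b: CATGATgtcgatCATcctggagtctccAAT
Pde4d: CATGATgtggacCATcctggggtgtcaAAT
Pde5a: CATGACttggatCATcgtggcgtgaacAAC
Pde7a: CACGATctggatCACccaggtgttaatCAG
Pde8a: CATGACgtggatCACcctgggagaaccAAC
Pde10a: CATGACctggacCACaggggcttcagtAAC
The Pde3b stretch lies at chr7:114526921-114526950 on the plus strand, in exon 12 of 16, and its closest member was Pde3a, with 86.7% of bases identical. The Pde3a stretch also lies in exon 12 of 16, at chr6:141487899-141487928. The other members matched Pde3b at 46.7% (Pde10a) to 70.0% (Pde8a) of the bases. Over whole transcripts, no run of 100 bases, the read length, was shared between Pde3b, or any other member but Pde3a, and another gene. In Pde3a, 5.08% of such runs also occurred in Gm28523, which overlaps its exons on the opposite strand by 741 bases. Antisense exons also overlapped Pde5a by 55 bases and Pde7a by 48 bases, and the sources used here do not say whether counting used strand.

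In vehicle-treated myoblasts the most abundant member was Pde7a. In FPKM, which divides CPM by the length of a gene's exons in kilobases and so allows genes to be compared, it stood at 6.49 ± 0.511 (SD, n = 3), above Pde4d at 1.72 ± 0.0356 FPKM, and the ranges of the 3 libraries of these genes did not overlap. Pde4d in turn stood above Pde5a at 1.22 ± 0.0790 FPKM without overlap. Pde4b (1.18 ± 0.935 FPKM) had no certain place, since its libraries, from 0.526 to 2.25 FPKM, spanned those of both. Pde4a (0.365 ± 0.156 FPKM) and Pde10a (0.219 ± 0.161 FPKM) lay below Pde5a in all libraries and overlapped each other. Pde3b followed at 0.104 ± 0.0176 FPKM, with libraries that overlapped those of Pde10a above it and of the relative Pde1b below it (0.0780 ± 0.0600 FPKM). Pde8a (0.0115 FPKM) and Pde3a (0.00631 FPKM) were close to the limit of detection. The dominant phosphodiesterase mRNA was not a member: Pde2a, a cGMP-stimulated enzyme that hydrolyses both nucleotides, stood at 36.5 ± 10.3 FPKM.

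Pde3b (chr7:114415281-114539251 in GRCm38, as for all positions) was higher with PSB-KD107 in every library than in any vehicle library, on few reads. Its counts were 39, 27 and 35 in vehicle libraries 1, 2 and 4, or 0.995, 0.773 and 1.09 CPM. In the PSB-KD107 libraries they were 83, 35 and 137, or 1.65, 1.12 and 3.77 CPM. The groups did not overlap, but PSB-KD107 library 2 was close to vehicle library 4, and PSB-KD107 library 4 was 2.29-fold above the highest other library. The fitted log2 fold change was 1.19 (SE 0.50), from a mean of 0.951 ± 0.161 CPM to 2.18 ± 1.40 CPM (SD, n = 3), with an unadjusted p of 0.0540 and an adjusted p of 0.542 (edgeR quasi-likelihood test, Benjamini-Hochberg adjustment over all genes tested). DESeq2 gave an unadjusted p of 0.0457 and an adjusted p of 0.394. Without PSB-KD107 library 4 the edgeR log2 fold change was 0.54 (SE 0.33), with an adjusted p of 0.703. The result for Pde3b was thus a separation of the groups that did not pass the test, and whose size rested largely on 1 library.

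Pde3a (chr6:141249269-141507448), the other gene of its family and the main form of heart and vascular smooth muscle, was barely present. Vehicle libraries 1, 2 and 4 gave 0, 3 and 5 counts, and the treated ones gave 0, 1 and 3. It was not tested, and no fold is given because 5 of the 6 values lie at or under 3 counts. Of the Pde3 family, Pde3b was thus the gene with the measurable transcript in these cells.

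**Figure D1:**
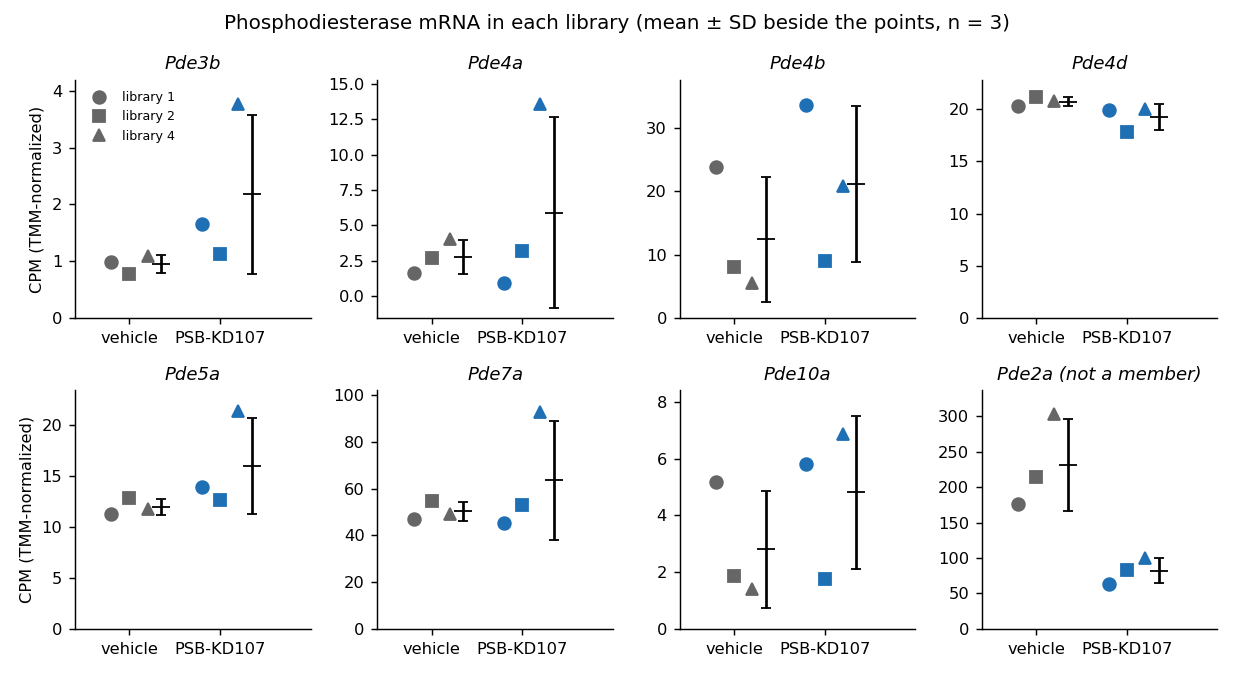
TMM-normalized CPM (y axis, linear, a scale of its own in each panel) of the 7 tested members and the relative Pde2a in each vehicle and PSB-KD107 library. Points are libraries, their shapes give the library number, and the bar beside each group is the mean ± SD (n = 3), which for Pde4a under PSB-KD107 reaches below 0. Pde3b, Pde4a, Pde5a, Pde7a and Pde10a were highest in PSB-KD107 library 4, whereas all 3 Pde2a values under PSB-KD107 were below all 3 under vehicle.

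The Pde4 genes encode cAMP-specific enzymes, which carry much of the cAMP hydrolysis of many cell types and are the targets of rolipram. Pde4d (chr13:108449948-109953461) was the steadiest member: vehicle libraries 1, 2 and 4 held 20.3, 21.1 and 20.7 CPM and the PSB-KD107 libraries 20.0, 17.8 and 20.0 CPM. The groups did not overlap, with all PSB-KD107 values lower, but the log2 fold change was only -0.10 (SE 0.12), with an adjusted p of 0.808 (edgeR).

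Pde4b (chr4:102087543-102607259), a gene whose transcription cAMP can itself induce, varied by several fold within each group. Its levels were 23.8, 7.99 and 5.55 CPM in vehicle libraries 1, 2 and 4. With PSB-KD107 they were 33.5, 9.01 and 20.7 CPM. Both groups had a high library 1, so that vehicle library 1 exceeded 2 of the 3 PSB-KD107 libraries, and the log2 fold change of 0.76 (SE 0.68) had an adjusted p of 0.772 (edgeR). It ranged from 0.24 without PSB-KD107 library 1 to 1.64 without vehicle library 1.

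Pde4a (chr9:21165714-21213248) owed its treated mean to 1 library. It stood at 1.66, 2.69 and 4.03 CPM under vehicle and at 0.934, 3.21 and 13.6 CPM under PSB-KD107, so that the lowest and the highest library were both treated ones. Its log2 fold change was 1.08 (SE 0.93) with an adjusted p of 0.764, and without PSB-KD107 library 4 it turned to -0.44 (SE 0.66), with an adjusted p of 0.922 (edgeR). No direction can therefore be given for Pde4a.

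Pde7a and Pde8a encode cAMP-specific enzymes that rolipram does not inhibit. Pde7a (chr3:19223108-19311322) held 46.9, 54.6 and 49.4 CPM in the vehicle libraries and 45.3, 52.9 and 92.6 CPM in the PSB-KD107 libraries. Libraries 1 and 2 were thus at the vehicle level, and only PSB-KD107 library 4 stood above it. The log2 fold change was 0.34 (SE 0.28) with an adjusted p of 0.746, and it was -0.04 (SE 0.12), with an adjusted p of 0.965, without that library (edgeR). Pde8a (chr7:81213596-81334533) had 2, 2 and 1 counts under vehicle and 4, 1 and 9 counts under PSB-KD107, and did not reach the filter.

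Pde5a, the cGMP-specific enzyme inhibited by sildenafil, and Pde10a, an enzyme of both nucleotides best known from the striatum, completed the members. Pde5a (chr3:122728947-122859374) stood at 11.3, 12.8 and 11.8 CPM under vehicle and at 13.9, 12.7 and 21.3 CPM under PSB-KD107. Its PSB-KD107 library 2 lay inside the vehicle range and the other treated libraries above it, and the log2 fold change of 0.42 (SE 0.23) had an adjusted p of 0.635, or of 0.821 at 0.15 (SE 0.13) without PSB-KD107 library 4 (edgeR). Pde10a (chr17:8525372-8986648) resembled Pde4b in its spread, with 5.18, 1.86 and 1.40 CPM under vehicle and 5.82, 1.76 and 6.88 CPM under PSB-KD107. Like Pde4b it was high in library 1 of both groups and in PSB-KD107 library 4. Its groups overlapped, and the log2 fold change was 0.78 (SE 0.69) with an adjusted p of 0.770 (edgeR), ranging from 0.43 without PSB-KD107 library 4 to 1.56 without vehicle library 1.

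Over the members, 6 of the 7 tested had a higher and 1 a lower fitted level with PSB-KD107, and the median log2 fold change was 0.76, against -0.0007 over all genes tested. None passed an adjusted p of 0.05 in edgeR, which called 0 of all genes (0%), and none had an unadjusted p under 0.05, where 916 genes were higher (6.47%) and 415 lower (2.93%). DESeq2 also called no member, while it called 349 genes higher (2.58%) and 133 lower (0.982%) of 13540 with an adjusted p. Groups without overlap were seen for 1 member higher (Pde3b), where 9.2% of all genes had this, and for 1 member lower (Pde4d), where 6.59% had this. These shares of 1 in 7 stand on single genes and are no more than a description. PSB-KD107 library 4 was the highest of the 6 libraries for 5 of the 7 tested members, against 25.7% of all genes tested. Its raised Ly6a level was not shared by the fibro-adipogenic markers Dcn and Cd34. With PSB-KD107 library 4 left out, 4 members had a higher and 3 a lower fitted level, and their median was 0.15 on the log2 scale. The part of that library's composition in the members' values was not tested. In bulk RNA, a change in the number of cells that express a gene and a change in RNA per cell cannot be told apart.

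**Figure D2:**
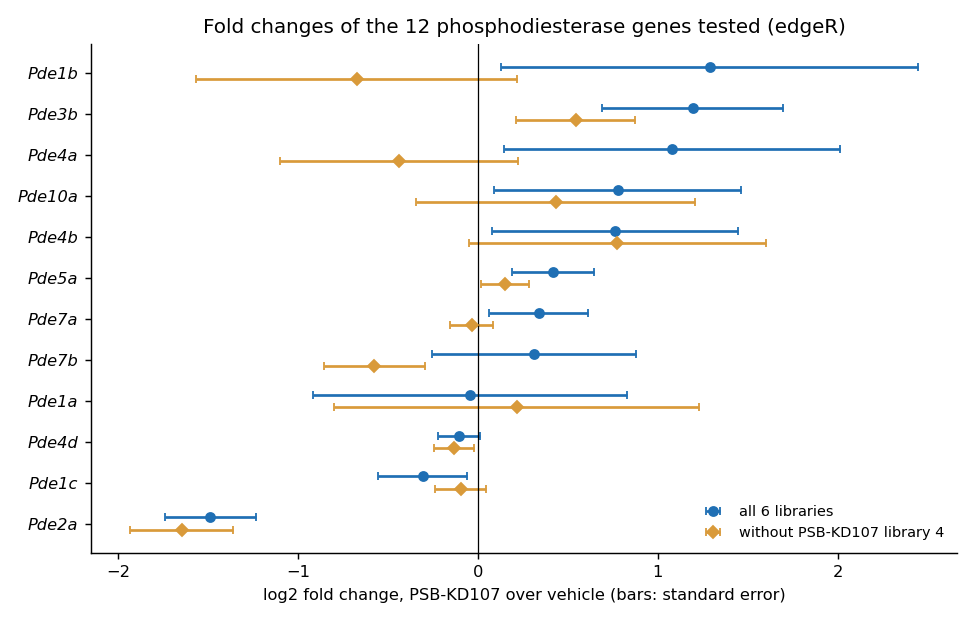
Log2 fold change of PSB-KD107 over vehicle (x axis, edgeR) for the 12 phosphodiesterase genes tested (y axis), from all 6 libraries (circles) and without PSB-KD107 library 4 (diamonds), with bars of 1 standard error. Pde3b moved from 1.19 to 0.54, Pde4a, Pde7a and the relatives Pde1b and Pde7b crossed 0 to the lower side, and Pde2a remained between -1.49 and -1.65.

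Whether Pde3b moved apart from its relatives was asked within each library, from the log2 ratio of its counts to those of each other member with a count in every library (0.5 added). With 7 relatives compared and 3 libraries per group, the two-sided exact permutation test could not give a p under 0.1, so that no ratio could pass a threshold of 0.05. The ratio to Pde4d was higher by 1.12 with PSB-KD107 (p = 0.1, adjusted p = 0.467, exact test), from -4.44 ± 0.272 to -3.32 ± 0.817 (SD, n = 3), and this was the only ratio whose groups did not overlap. The ratios to Pde7a and Pde5a were higher by 0.74 and 0.63 (p = 0.2 each, adjusted p = 0.467, exact test). Against Pde4a the difference was 0.62 (p = 0.6, exact test), and against Pde4b and Pde10a it was 0.15 and 0.22 (p = 0.8 and p = 0.7, exact test), with an adjusted p of 0.8 for all 3. The ratio to Pde8a is not described, because 4 of the 6 Pde8a counts lie at or under 3.

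Among the relatives, Pde2a on chromosome 7 was lower in all treated libraries. It stood at 176, 214 and 303 CPM in vehicle libraries 1, 2 and 4 and at 64.0, 83.7 and 99.6 CPM with PSB-KD107. The lowest vehicle library was thus well above the highest treated one, and the means were 231 ± 65.1 and 82.4 ± 17.9 CPM (SD, n = 3). The log2 fold change was -1.49 (SE 0.25), or 2.80-fold lower, with an unadjusted p of 0.00102 and an adjusted p of 0.184 in edgeR, so that Pde2a was not called there. DESeq2 called it, with an adjusted p of 1.72e-05, and did so in 6 of 6 analyses that left out 1 library each. In edgeR the same 6 analyses gave adjusted p-values of 0.1735 to 0.857, so that none called it. These analyses share most of their libraries and are not independent.

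Of the other relatives, Pde1a, Pde1b and Pde1c, which are activated by calcium and calmodulin, and the cAMP-specific Pde7b were tested, and all had overlapping groups. Their log2 fold changes were -0.05 (SE 0.87), 1.29 (SE 1.16), -0.31 (SE 0.25) and 0.31 (SE 0.57), with adjusted p-values between 0.741 and 0.989 (edgeR). Pde1b had 29, 15 and 3 counts under vehicle and 18, 5 and 95 counts under PSB-KD107, so its fold change came from PSB-KD107 library 4. The other 7 genes did not reach the filter: the photoreceptor genes Pde6a, Pde6b and Pde6c, and Pde4c, Pde8b and Pde11a, had at most 4 counts in any library, and Pde9a had 0 in all 6, which allows up to 3 counts in each.

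The make-up of the phosphodiesterase mRNA pool was computed per kilobase of exon over all 21 genes. Its sum was 42.6, 46.7 and 59.4 FPKM in the vehicle libraries and 25.6, 25.5 and 38.0 FPKM in the PSB-KD107 libraries. The groups did not overlap (p = 0.1, exact permutation test, which is the limit of this design). Without Pde2a the sum was 13.1 ± 1.64 and 16.7 ± 5.12 FPKM (SD, n = 3; p = 0.3, exact permutation test), and the 9 members alone summed to 11.3 ± 0.655 and 14.9 ± 5.00 FPKM (p = 0.3, exact permutation test). The lower total was thus carried by Pde2a, and the summed levels of the members overlapped between the groups.

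By share, the members made up 27.9%, 24.6% and 17.8% of the pool in the vehicle libraries and 50.3%, 43.7% and 54.0% in the PSB-KD107 libraries. Pde2a made up 72.7 ± 7.68% and 44.2 ± 6.69% (SD, n = 3), and Pde7a, the second largest, 13.3 ± 2.31% and 27.0 ± 4.31%. Pde3b made up 0.213 ± 0.0387% and 0.759 ± 0.305%. Shares add up to the whole, so that every member's share depends on Pde2a as well as on its own level. Genes of cAMP-specific enzymes summed to 9.93 ± 0.567 and 12.8 ± 4.36 FPKM (p = 0.3, exact permutation test), those of cGMP-specific enzymes to 1.24 ± 0.0912 and 1.64 ± 0.462 FPKM (p = 0.2, exact permutation test), and those of enzymes of both nucleotides to 38.4 ± 9.33 and 15.2 ± 2.51 FPKM (p = 0.1, exact permutation test). Without Pde2a the last sum was 1.97 ± 1.20 and 2.24 ± 0.950 FPKM (p = 0.9, exact permutation test). The reads of Pde2a were counted under an identifier that GENCODE M21 gives to an overlapping gene model, so its length was taken over both models, and 0.811% of its 100-base runs also occur in Arap1.

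**Figure D3:**
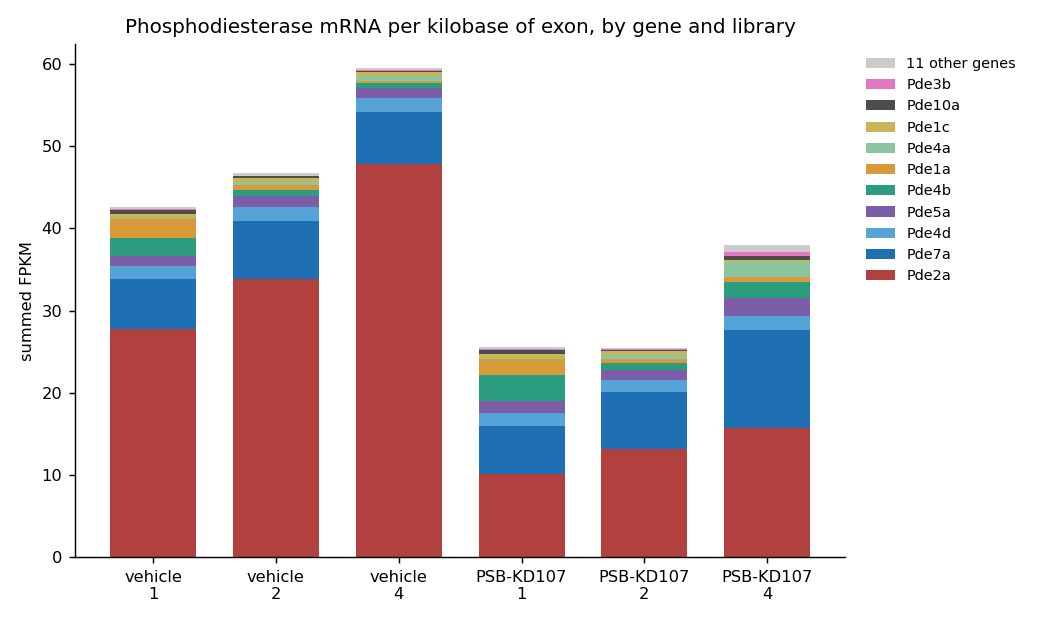
Stacked bars of FPKM (y axis, from 0) for the phosphodiesterase genes in each of the 6 libraries (x axis), with 10 genes in colour and the 11 others in grey. The Pde2a block was smaller in all 3 PSB-KD107 libraries, the Pde7a block was largest in PSB-KD107 library 4, and Pde3b was a thin band in every library.

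The other parts of cyclic nucleotide signalling were described with 9 lists written from general knowledge, but with earlier results of these data known. Leaving out phosphodiesterases, 89 of their 112 genes were tested, 44 higher and 45 lower with PSB-KD107, with a median log2 fold change of -0.01. No gene of them passed an adjusted p of 0.05 in edgeR. At an unadjusted p below 0.05, 11 had a higher and 5 a lower level (6.47% and 2.93% of all genes). DESeq2 called 3 higher and 2 lower (2.58% and 0.982% of all genes). These shares over all genes apply to each list below. Since the lists were chosen with earlier results known, their counts are a description only.

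For the enzymes that make the nucleotides, 7 of 10 adenylyl cyclase genes were tested, and none had an unadjusted p under 0.05 in edgeR or a DESeq2 call. The genes with the smallest p were Adcy3, Adcy2 and Adcy8, with log2 fold changes of -0.37, 0.25 and 0.16. Of 12 genes of guanylyl cyclases and natriuretic peptide receptors, 5 were tested. At an unadjusted p under 0.05, 1 was higher and 1 lower (6.47% and 2.93% of all genes). Gucy1a1, a subunit of the nitric oxide receptor, was lower (log2 fold change -2.91, SE 1.04, adjusted p = 0.469, edgeR), but 114 of its 139 vehicle counts came from library 1. Its partner subunit Gucy1b1 had -1.59 (SE 0.87) with overlapping groups, and Npr3, the natriuretic peptide clearance receptor, was higher by 0.94 (SE 0.34, adjusted p = 0.478, edgeR).

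Among 12 genes of G protein alpha subunits and cAMP regulators, all tested, 1 was higher and 1 lower at an unadjusted p under 0.05. The shares over all genes were 6.47% and 2.93%. Rgs16, which speeds the shut-off of G protein signals, had a log2 fold change of -1.33 (SE 0.42). It was called by DESeq2 (adjusted p = 0.0455) but not by edgeR (adjusted p = 0.415). Its groups overlapped, with PSB-KD107 library 2 at 75.9 CPM and vehicle library 1 at 74.0 CPM. Gnaz, an alpha subunit that inhibits adenylyl cyclase, had 0.80 (SE 0.26, adjusted p = 0.421, edgeR), and Abcc4, a cAMP exporter, 1.10 (SE 0.55) with overlapping groups.

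Of the effectors, 10 of 11 genes of protein kinases A and G and their inhibitors were tested. In 8 of these the fitted level was lower, and the median over the 10 was -0.27. At an unadjusted p under 0.05, 1 was lower and none higher, against 2.93% and 6.47% of all genes. That gene was Prkaca, the main catalytic subunit of protein kinase A, at 748 ± 66.5 and 596 ± 37.3 CPM (SD, n = 3), with a log2 fold change of -0.33 (SE 0.11, adjusted p = 0.462, edgeR). Prkacb had -0.24 (SE 0.12) and Prkg1, the cGMP-dependent kinase, 0.71 (SE 0.37), both with overlapping groups. In the list of other effectors, 7 of 13 were tested, with no unadjusted p under 0.05. Hcn2 and Popdc2 had log2 fold changes of 0.64 (SE 0.52) and -0.48 (SE 0.53), both with overlapping groups. Of 14 A-kinase anchoring proteins, which place kinase and phosphodiesterase together, 11 were tested, again with none, and Akap2, Akap10 and Akap12 had 1.15, 0.20 and 1.41.

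CREB is the transcription factor that protein kinase A phosphorylates. Of the 10 genes of its family and coactivators, all tested, Creb5 was higher (1.65, SE 0.49, adjusted p = 0.386) and Crtc1 lower (-0.41, SE 0.15, adjusted p = 0.479) at an unadjusted p under 0.05 in edgeR, and Crem had 0.27 (SE 0.19). Of 20 CREB target genes, 19 were tested, 15 had higher fitted levels, the median log2 fold change was 0.41, and 5 were higher and none lower at an unadjusted p under 0.05, against 6.47% and 2.93% of all genes. Without PSB-KD107 library 4 the median was 0.41 again, with 13 higher and 4 past that p, all of them higher. DESeq2 called 3 of the 19, all higher, against 2.58% of all genes: Cebpb (18.5 ± 2.10 to 40.6 ± 7.66 CPM, SD, n = 3), Nr4a3 (2.00 ± 0.780 to 9.06 ± 3.96 CPM) and Ppargc1a (7.84 ± 1.99 to 31.3 ± 19.0 CPM). Their log2 fold changes were 1.13 (SE 0.18), 2.18 (SE 0.47) and 2.00 (SE 0.46), with adjusted p-values of 2.66e-05, 0.000925 and 0.00144 in DESeq2 and of 0.184, 0.245 and 0.264 in edgeR. The members Pde4b and Pde4d belong to this list too, and neither was called. Because the list was chosen with earlier results of these data known, its counts beside those of all genes are a description only. These targets also answer to other signals, and the part of cAMP in their levels was not tested.

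In the list of regulators and partners of Pde3b, 12 of 14 genes were tested. At an unadjusted p under 0.05, 3 were higher and 1 lower, where 6.47% and 2.93% of all genes were. Cav1, a caveolar protein found with Pde3b in adipocytes, had 28.2, 15.2 and 11.2 CPM in the vehicle libraries and 2.90, 4.97 and 0.825 CPM with PSB-KD107, a log2 fold change of -2.65 (SE 0.69), and was called by DESeq2 (adjusted p = 0.00292) but not by edgeR (adjusted p = 0.326). Pik3r5, an adaptor of phosphoinositide 3-kinase gamma, was higher on 11 and 81 counts per group (2.64, SE 0.63, adjusted p = 0.281, edgeR), and Irs2, an insulin receptor substrate, by 0.82 (SE 0.29, adjusted p = 0.461, edgeR). The kinase genes Akt1 and Akt2 had -0.15 (SE 0.11) and -0.20 (SE 0.14), and Abhd15, which stabilises the Pde3b protein in adipocytes, had 0.89 (SE 0.62), or 0.18 (SE 0.53) without PSB-KD107 library 4, all 3 with overlapping groups. These 3 were chosen after their values were seen.

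**Figure D4:**
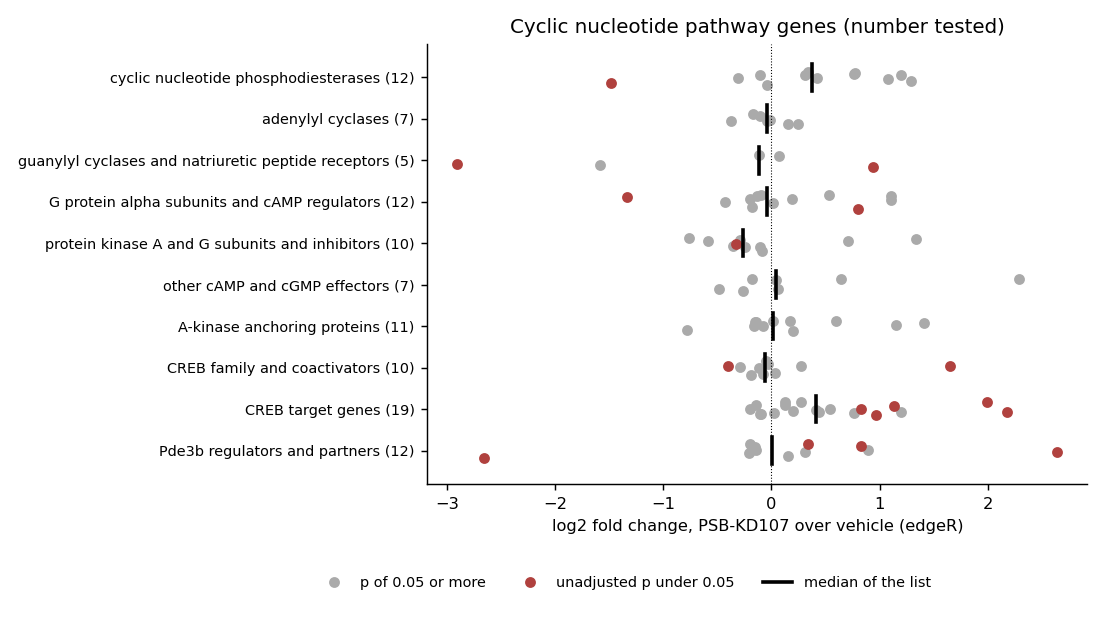
Log2 fold change of PSB-KD107 over vehicle (x axis, edgeR) of each tested gene in the phosphodiesterase list of 21 genes and the 9 other cyclic nucleotide lists (y axis, number tested in brackets), with points spread vertically for legibility. Red points have an unadjusted p under 0.05, grey points do not, and black bars are list medians, the highest of which was 0.41 for the CREB target genes.

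The genes whose log2 CPM over the 6 libraries was most like that of Pde3b were Celf4 (Pearson r = 0.995), Prkd3 (0.994), Top1mt (0.994), Rtn3 (0.992) and Chmp4b (0.992), out of 14165. All 5 were highest in PSB-KD107 library 4, by 1.04-fold (Rtn3) to 2.84-fold (Celf4) over the next library, as Pde3b was by 2.29-fold. With 6 points that share libraries and 1 high library, this is a description of a shared pattern only.

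Promoter windows of RefSeq (250 bases before to 50 bases after a start, GRCm38) covered 6 of the 9 members with 12 windows, and held none for Pde3a, Pde3b and Pde7a. The full cAMP response element, TGACGTCA, searched on both strands, was in 0 of the 12 windows and in 1.79% of all 32851 windows. The shorter TGACG, which is part of it, was in 3 windows, 1 each of Pde4a, Pde4b and Pde8a, and in 20.8% of all windows. A match is a letter match and not a measured binding site.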

How the data were processed

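RNA from mdx myoblasts was sequenced by the authors as poly(A) libraries of paired 100-base reads, which were aligned with STAR through GenPipes to mm10. The authors deposited raw counts per gene, with no normalization. The counting program, its annotation and its use of strand are not given in the sources used here. Columns were assigned by the names in the table. Libraries numbered 4 were placed in a group but in no single sample record, and 0 columns had no group.

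Counts were filtered with filterByExpr (default minimum count 10), scaled with TMM factors and tested with edgeR 4.0.16 (quasi-likelihood, no covariate) in R 4.3.3, with DESeq2 1.42.0 as an alternative. Benjamini-Hochberg adjustment ran over all genes tested, with a threshold of 0.05. FPKM used the union of exons in GENCODE M21. Python 3.11.15 with pandas 2.3.3 served for ratios (offset 0.5 counts), shares and exact permutation tests. Scripts were tested on simulated data. Errors between libraries are SDs over 3 libraries. The SE of an edgeR fold change was calculated back from the test, as the absolute log2 fold change divided by the square root of F.

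The members and lists were chosen with earlier results of these data known. Named genes were all members, every other phosphodiesterase that passed the filter, the 3 genes of smallest p in each list and the 5 genes most correlated with Pde3b. A gene covered by this rule is not reported here. Gucy1a1 and Gucy1b1 were matched by identifier, since the table carries their older symbols. Alternatives were RLE scaling, no filter, a mean FPKM of at least 1, DESeq2, the library number as a block, each library left out, an offset of 0.1 CPM and counts not divided by length. The same-numbered libraries were not treated as pairs.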

Additional observations from a re-analysis of the deposited data

How the results depend on the processing

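Of 523 alternative values over 37 results, 447 kept their direction and their side of the threshold or stayed within the spread, 39 moved, 29 turned their direction and 8 passed the threshold anew. The 4 libraries without a block were added after the data were seen. Depth limits Pde3a, Pde8a and 7 relatives, which had too few counts to test, and under an FPKM of at least 1 Pde3b, Pde4a, Pde10a, Pde1b, Pde1c and Pde7b could not be fitted.

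Deviations of same-numbered libraries correlated at 0.63 (number 1), 0.50 (number 2) and -0.13 (number 4). Those of differently numbered libraries ranged from -0.70 to 0.64, the highest being vehicle library 4 with PSB-KD107 library 2. Because deviations were taken from the mean of each group of 3 libraries, these correlations depend on each other. They cannot decide whether a shared number marks cells of the same mouse. The main fit used no pairs. Calls over all genes numbered 0 in edgeR, 8 without a filter, 482 in DESeq2, and 2582 with a replicate block on 4 libraries. With 1 library left out they were 0 in each of 6 edgeR fits and 184 to 820 in DESeq2. Genes at an unadjusted p under 0.05 numbered 1331 in edgeR and 4429 with that block, and with 1 library left out 677 to 1783 in edgeR and 991 to 2437 in DESeq2. The Pde2a log2 fold change was -1.50 in DESeq2 (adjusted p = 1.72e-05), -1.41 with the block on 4 libraries (adjusted p = 3.28e-05), -1.40 on these 4 without it (adjusted p = 0.583), -1.47 with the block on 6 (adjusted p = 0.15), and -1.66 to -1.24 with 1 library left out. With the block on 4 libraries, and on them without it, the values were -0.23 and -0.079 for Pde4a, -0.0477 and -0.0478 for Pde7a, -0.64 and -0.64 for Pde7b, -1.16 and -1.13 for Pde1b, and -0.10 and -0.080 for the median of the phosphodiesterase genes. The 4 libraries of these fits leave out both libraries numbered 4. Without PSB-KD107 library 4 alone, the edgeR values were -0.44 for Pde4a, -0.035 for Pde7a, -0.58 for Pde7b and -0.67 for Pde1b. Pde1a was 0.12 with the block on 6 libraries. The causes of these shifts were not tested. Leaving out 1 library, in edgeR and DESeq2 together, gave -0.99 to 1.18 for Pde1a, -0.70 to 1.99 for Pde1b, -0.46 to 1.58 for Pde4a, -0.051 to 0.53 for Pde7a, -0.59 to 0.62 for Pde7b and -0.081 to 0.62 for that median. For the log2 ratio of Pde3b it gave -0.21 to 1.12 against Pde4a, -0.42 to 0.69 against Pde4b, -0.062 to 0.49 against Pde8a, which had at most 9 counts, and -0.30 to 0.70 against Pde10a. Not divided by length, Pde2a made up 64.7% and 35.7% of the pool.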
